A study of Mus musculus with 9 samples.

Results

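The genes described here are 10 major urinary protein (Mup) genes measured in mouse liver: Mup1, Mup2, Mup3, Mup7, Mup11, Mup12, Mup15, Mup19, Mup20 and Mup21. They were chosen by gene symbol and are 10 of the 17154 genes that both count tables of the study list. RNA from whole liver of male C57BL/6 mice was sequenced in 9 libraries, 3 in each of 3 groups. MMI+T3 mice drank 0.1% methimazole for 20 days and were injected with T3 (triiodothyronine, the hormone form that binds the nuclear receptor) on 5 days, once a day, with the liver taken 24 hours after the last one. MMI mice drank the same methimazole for 20 days and were not injected with T3. CT mice were untreated, and their labels give the substrain C57BL/6J and an age of 8 to 12 weeks, whereas the labels of the other groups give no age. The methods of the study add sodium perchlorate to the drinking water of methimazole mice. No group carried a transgene or a deleted gene. Methimazole blocks thyroid hormone synthesis, so MMI against CT compares hypothyroid with untreated liver, and an effect of low hormone and a direct effect of the drugs cannot be told apart. The CT libraries were deposited in a table of their own, so table and group cannot be told apart in any comparison with CT.

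Major urinary proteins are small lipocalins, barrel-shaped proteins that carry hydrophobic ligands. Hepatocytes secrete them into blood, the kidney passes them into urine, and there they bind and slowly release volatile pheromones, and some act as signals themselves. Mouse Mup genes lie side by side in a cluster formed by repeated duplication, and many copies are nearly identical. Their hepatic expression is higher in males, and androgens, pulsatile growth hormone, glucocorticoids and thyroid hormone are all known to act on it. Mup20 encodes darcin, the male urinary protein that attracts females and conditions memory of a male's scent, and Mup1 has been studied as a circulating factor in glucose and energy metabolism.

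The near-identity of the copies bears on every value below, because the reads were 150 bases long. All 10 genes lie on chromosome 4 of the GRCm38 build, from Mup7 at chr4:60066469-60070475 to Mup21 at chr4:62147932-62150863, and all 10 are on the minus strand. Each 150-base stretch of their GENCODE M21 transcripts was looked up in the transcripts of all other genes. Mup3 and Mup21 shared no such stretch with another gene, so that 100% of their stretches were unique. Mup20 had 68.9% unique stretches, and the only other gene that held the rest was the pseudogene Mup-ps19. The other 7 genes shared stretches with 14 or 15 other genes each. The unique share was 47.5% for Mup1, 35.2% for Mup11, 32.9% for Mup7, 29.7% for Mup2, 24.1% for Mup12, 9.28% for Mup15 and 0.765% for Mup19. For Mup19 that was 7 of 915 stretches. The coding sequences of Mup2, Mup11, Mup12 and Mup15, which have similar lengths, were 99.1% to 99.6% identical to each other. They were 90.7% to 91.4% identical to that of Mup20 and 83.4% to 84.3% identical to that of Mup3. Mup3 and Mup21 were 94.9% identical to each other. How the counting treated reads that match several copies, or their strand, is not given in the sources used here. The split of reads among the 7 similar genes is therefore uncertain. Reads of full length that match Mup3 or Mup21 transcripts exactly do not depend on it. Shorter reads, reads with mismatches and the rest of the genome were not checked.

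A stretch upstream of the gene could be compared for 5 members, and among these it fell into 2 kinds. RefSeq promoter sequences (GRCm38.p6) were matched for 7 members, namely Mup2, Mup3, Mup7, Mup11, Mup15, Mup19 and Mup21, and Mup1, Mup12 and Mup20 had no entry. The stretches below are shown because the expression of Mup15 and Mup2 moved unlike that of Mup3 and Mup21. Each runs from 10 bases before the letters ATCAAT nearest the start to the end of the letters TATATAA, and both are in capitals. ATCAAT occurs in the recognition sequence of the ONECUT and CUX factors, and TATATAA is a TATA box. Mup7 and Mup11 lack TATATAA in the bases searched, so no stretch was compared for them.
Mup15, chr4:61439723-61439860, minus strand: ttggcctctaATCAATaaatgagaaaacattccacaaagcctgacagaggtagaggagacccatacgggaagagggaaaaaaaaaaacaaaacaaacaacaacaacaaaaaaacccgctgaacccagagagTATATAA
Mup2, chr4:60139877-60140019, minus strand: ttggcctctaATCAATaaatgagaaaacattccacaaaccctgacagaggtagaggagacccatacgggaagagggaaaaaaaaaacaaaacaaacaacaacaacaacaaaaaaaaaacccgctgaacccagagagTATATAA
Mup3, chr4:62087322-62087427, minus strand: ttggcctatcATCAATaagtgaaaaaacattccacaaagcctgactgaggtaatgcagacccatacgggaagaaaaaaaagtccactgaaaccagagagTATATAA
Mup21, chr4:62150843-62150945, minus strand: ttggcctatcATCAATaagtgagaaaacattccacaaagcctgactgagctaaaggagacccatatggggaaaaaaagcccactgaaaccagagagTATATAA

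The letters between ATCAAT and TATATAA numbered 115 in Mup15 and 120 in Mup2, which hold a long run rich in A and C, whereas they numbered 83 in Mup3 and 80 in Mup21. Mup6, which is not a member, had 84 letters there. Its log2 fold change in MMI+T3 against MMI was 7.93 ± 0.47. That value is imprecise, since Mup6 had 3, 1 and 1 counts in MMI livers and entered the test through MMI+T3. A link between this stretch and expression was not tested. The stretch of Mup19 was 100% identical to that of Mup15. Mup3 and Mup21 were 91.5% identical to each other over this stretch, and Mup3 was 66% to 69.1% identical to Mup2, Mup15 and Mup19. Over the 250 bases before the RefSeq start, searched on both strands, ATCAAT occurred in all 7 member promoters and in 6.72% of all 32851 promoters. It occurred at 2 or more places in each of the 7 and in 0.609% of all promoters. These genes arose by duplication, so the 7 are not separate cases. TATATAA occurred in 5 of the 7, all but Mup7 and Mup11, and in 3.04% of all promoters. AGAACA, a half-site of the glucocorticoid receptor and related steroid receptors, occurred in Mup3 and Mup21 alone among the 7 and in 16.1% of all promoters. AGGTCA, a half-site of the thyroid hormone receptor and related nuclear receptors, and TTCNNNGAA, the STAT motif, occurred in none of the 7, and in 14% and 7.02% of all promoters. A match or its lack in these windows describes the letters only.

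Together the 10 genes took 0.734% to 1.1% of all counts in MMI+T3 livers, 0.2645% to 0.4086% in MMI livers and 0.9398% to 1.13% in CT livers, out of 17256776 to 22599227 counts a library. Levels are given below as CPM, read counts relative to the library size after scaling by the trimmed mean of M-values. The summed CPM of the 10 genes was 9298 ± 1927 in MMI+T3, 3340 ± 747 in MMI and 11131 ± 1257 in CT (SD, n = 3 each). The 3 values of MMI lay below all values of the other groups, and those of MMI+T3 and CT overlapped. No test was made of the sum, and the sum hides 3 different patterns. In the first, 7 genes nearly disappeared in MMI livers and were present in MMI+T3 livers. In the second, Mup20 and Mup3 stayed among the most abundant Mup genes in every group. In the third, Mup21 was lowest in MMI+T3. The plot of CPM in each library shows these patterns side by side. In whole liver, fewer cells of a type and less RNA per cell cannot be told apart.

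**Figure D1:**
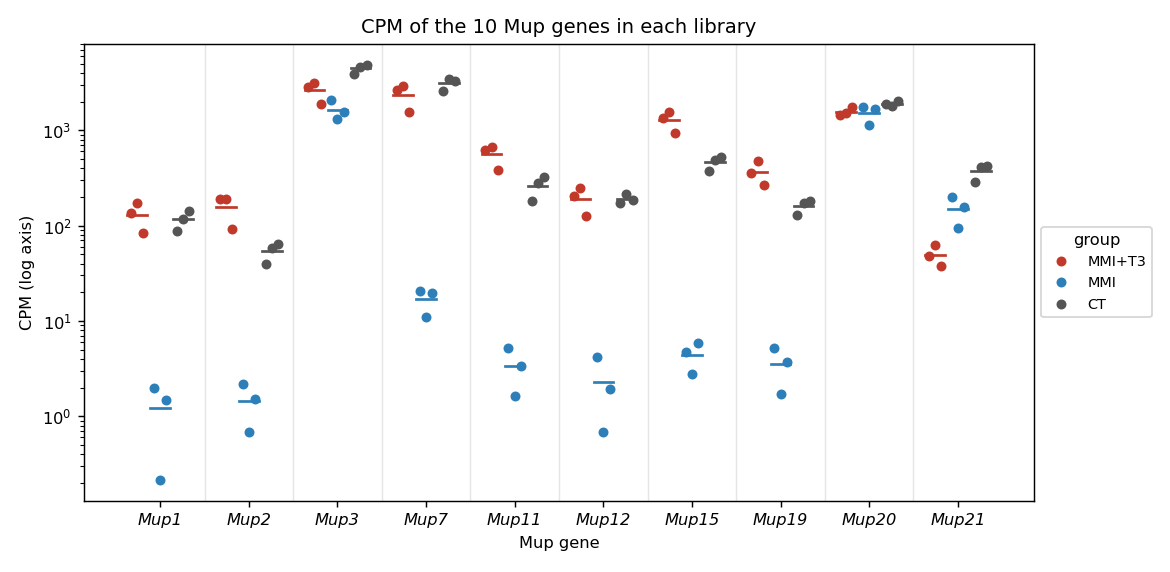
CPM of the 10 Mup genes (log axis) in each library of MMI+T3, MMI and CT, with 1 point a library and a bar at the mean of 3. In 7 genes every MMI point lies below every point of the other groups, whereas Mup20 lies between 1124 and 2009 CPM in all 9 libraries and Mup21 is lowest in MMI+T3.

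Between MMI+T3 and MMI livers, the question was what T3 does in hypothyroid liver. With the quasi-likelihood test of edgeR, Benjamini-Hochberg adjusted and called under 0.05, 7 of the 10 genes were higher in MMI+T3, where 9.83% of all 14109 genes tested were. One gene, Mup21, was lower, where 7.18% of all genes were. Mup3 and Mup20 did not pass. The median log2 fold change of the 10 genes was 6.70, beside -0.02 over all genes tested.

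Mup7 had 2632, 2887 and 1570 CPM in MMI+T3 livers, against 20.5, 10.9 and 19.4 CPM in MMI livers. These groups were far apart, and even the lowest MMI+T3 library exceeded the highest MMI library by a wide margin. The log2 fold change was 7.10 ± 0.35 (SE), a 137-fold difference (adjusted p = 5.54e-07, edgeR). Mup15, whose change had the largest estimate of the 10, had 1333, 1562 and 944 CPM in MMI+T3 livers, against 4.67, 2.79 and 5.83 CPM in MMI livers. This was a log2 fold change of 8.16 ± 0.34, or 286-fold (adjusted p = 2.92e-07, edgeR). Mup15 held few stretches of its own, so that its value is among the less certain ones. Mup11 had 618, 670 and 387 CPM in MMI+T3 livers, against 5.17, 1.63 and 3.36 CPM in MMI livers. The log2 fold change of Mup11 was 7.35 ± 0.40. Like Mup7 and Mup15, it was lower in MMI+T3 replicate 3 than in the other MMI+T3 libraries, and in MMI it was lowest in replicate 2.

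Mup1 had 135, 174 and 83.3 CPM in MMI+T3 livers, against 2.00, 0.215 and 1.47 CPM in MMI livers, where it had 44, 5 and 28 counts. The log2 fold change of Mup1 was 6.73 ± 0.50, and 7.33 without MMI replicate 1. Of the 7 genes, Mup1 rested on the fewest reads in MMI replicate 2. Mup12 had 203, 248 and 126 CPM in MMI+T3 livers, against 4.17, 0.687 and 1.94 CPM in MMI livers. That of Mup12 was 6.39 ± 0.49, and 7.21 without MMI replicate 1. In Mup1 and in Mup12 MMI replicate 1 had the highest MMI value, and the call did not change without it. Mup2 had 189, 189 and 91.8 CPM in MMI+T3 livers, against 2.18, 0.687 and 1.52 CPM in MMI livers, a log2 fold change of 6.73 ± 0.41. Mup19 had 360, 473 and 265 CPM in MMI+T3 livers, against 5.26, 1.72 and 3.73 CPM in MMI livers, a log2 fold change of 6.66 ± 0.39. Adjusted p-values of these 5 genes, Mup11 included, lay between 9.99e-07 and 1.15e-05 (edgeR). For Mup19, which had almost no stretch of its own, the values say that reads assigned to it changed with the group, not that this copy was their source.

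Mup20, the gene of darcin, had 1444, 1502 and 1760 CPM in MMI+T3 livers, against 1754, 1124 and 1660 CPM in MMI livers. The groups overlapped, and the log2 fold change was 0.03 ± 0.19 (adjusted p = 0.933, edgeR), with its estimate between -0.36 and 0.42 at 2 SE to either side. Mup3 had 2843, 3152 and 1905 CPM in MMI+T3 livers, against 2060, 1328 and 1544 CPM in MMI livers. MMI+T3 replicate 3 fell inside the range of MMI. Its log2 fold change of 0.66 ± 0.22 did not pass (adjusted p = 0.0703, edgeR), and it did pass without MMI+T3 replicate 3 (0.85, adjusted p = 0.0277) and without MMI replicate 1 (0.86, adjusted p = 0.0449). Mup21 went the other way. It had 47.6, 62.8 and 37.5 CPM in MMI+T3 livers, against 199, 95.2 and 157 CPM in MMI livers, with no overlap. This gave a log2 fold change of -1.63 ± 0.26 (adjusted p = 0.00157, edgeR). Mup21 shared no 150-base stretch with any other gene.

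Between MMI and CT livers, which compares methimazole-treated with untreated mice, 9 of the 10 genes were lower in MMI, where 2.8% of all 13925 genes tested were. None was higher, where 2.48% of all genes were. The median log2 fold change of the 10 genes was -5.87, beside 0.01 over all genes tested. Mup7 had 20.5, 10.9 and 19.4 CPM in MMI livers, against 2604, 3460 and 3303 CPM in CT livers, and it had the most negative log2 fold change of the 10, -7.51 ± 0.29 (adjusted p = 4.64e-07, edgeR). Mup15 had 4.67, 2.79 and 5.83 CPM in MMI livers, against 375, 493 and 526 CPM in CT livers, a log2 fold change of -6.70 ± 0.27. Mup1 had 2.00, 0.215 and 1.47 CPM in MMI livers, against 88.1, 119 and 142 CPM in CT livers, a log2 fold change of -6.57 ± 0.44, and -7.17 without MMI replicate 1. Mup12 had a log2 fold change of -6.38 ± 0.43, and -7.21 without that library. For Mup12 the CT livers had 171, 217 and 184 CPM, far above every MMI value given above. Mup11 had 5.17, 1.63 and 3.36 CPM in MMI livers, against 181, 282 and 322 CPM in CT livers, a log2 fold change of -6.26 ± 0.37. Mup19 had 5.26, 1.72 and 3.73 CPM in MMI livers, against 128, 172 and 183 CPM in CT livers, a log2 fold change of -5.48 ± 0.32. Mup2 had the smallest loss of the 7, with 2.18, 0.687 and 1.52 CPM in MMI livers, against 40.0, 57.6 and 63.5 CPM in CT livers, a log2 fold change of -5.19 ± 0.31.

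The other 3 genes, which lie at the end of the cluster, had smaller estimates in MMI against CT. Mup3 had 2060, 1328 and 1544 CPM in MMI livers, against 3916, 4662 and 4871 CPM in CT livers. The groups did not overlap, and the log2 fold change was -1.43 ± 0.18 (adjusted p = 0.000953, edgeR). Mup21 had 199, 95.2 and 157 CPM in MMI livers, against 286, 412 and 423 CPM in CT livers, also without overlap, with a log2 fold change of -1.30 ± 0.24 (adjusted p = 0.0113, edgeR). Mup20 had 1754, 1124 and 1660 CPM in MMI livers, against 1906, 1800 and 2009 CPM in CT livers. Its log2 fold change of -0.32 ± 0.17 did not pass (adjusted p = 0.352, edgeR), although all 3 MMI values lay below those of CT. Within each MMI library, where no scaling between libraries enters, Mup7 was 6.42, 6.69 and 6.42 log2 units below Mup20 in CPM, whereas in CT libraries it was 0.45, 0.94 and 0.72 log2 units above it.

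**Figure D2:**
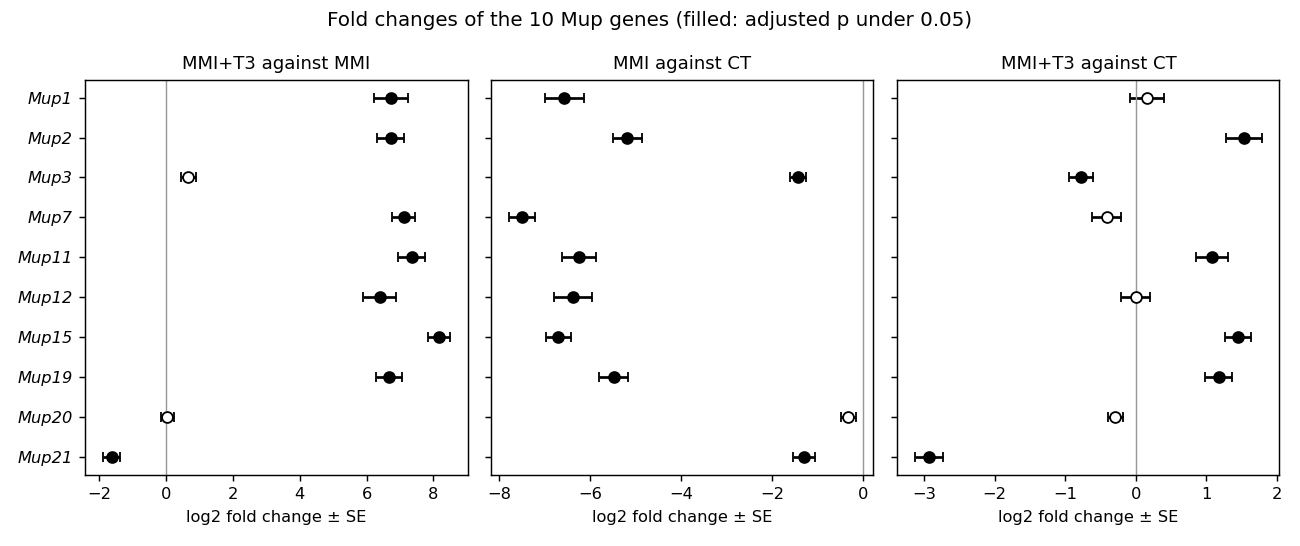
Log2 fold change with its standard error from edgeR for the 10 Mup genes in MMI+T3 against MMI, MMI against CT and MMI+T3 against CT (n = 3 libraries a group), filled where the adjusted p was under 0.05. In the first panel 7 genes lie between 6.39 and 8.16, Mup3 and Mup20 are open symbols near 0 and Mup21 is at -1.63. In the third panel the values run between -2.93 for Mup21 and 1.54 for Mup2.

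Between MMI+T3 and CT livers, the comparison asks how the level after T3 stood against that of untreated mice. It shares its libraries with both comparisons above. Of the 10 genes, 4 were higher in MMI+T3, where 13.3% of all 13847 genes tested were, 2 were lower, where 12.3% were, and 4 did not pass. The median log2 fold change of the 10 genes was 0.08, beside 0.01 over all genes tested. Mup2 had 189, 189 and 91.8 CPM in MMI+T3 livers, against 40.0, 57.6 and 63.5 CPM in CT livers, a log2 fold change of 1.54 ± 0.26 (adjusted p = 0.00171, edgeR). Mup15 had 1333, 1562 and 944 CPM in MMI+T3 livers, against 375, 493 and 526 CPM in CT livers, a log2 fold change of 1.45 ± 0.18 (adjusted p = 0.000278, edgeR). Both were thus above the untreated level and not only above the MMI level, and in neither did the groups overlap. Mup19 was higher by 1.18 ± 0.20 and Mup11 by 1.09 ± 0.23 on the log2 scale (adjusted p = 0.00174 and 0.00634, edgeR).

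Mup1, Mup7, Mup12 and Mup20 did not differ by the test in MMI+T3 against CT. Their log2 fold changes were 0.16 ± 0.24 for Mup1, -0.41 ± 0.20 for Mup7, 0.00 ± 0.20 for Mup12 and -0.29 ± 0.11 for Mup20. The direction of Mup12 turned in most other fits and that of Mup1 in some, so neither has a direction here. All 3 MMI+T3 values of Mup20 lay below those of CT, and it passed without MMI+T3 replicate 3 (-0.39, adjusted p = 0.0186, edgeR). Mup3 was lower in MMI+T3, with 2843, 3152 and 1905 CPM, against 3916, 4662 and 4871 CPM in CT livers, a log2 fold change of -0.78 ± 0.17 (adjusted p = 0.00798, edgeR). Mup21 was the member farthest below CT. It had 47.6, 62.8 and 37.5 CPM in MMI+T3 livers, against 286, 412 and 423 CPM in CT livers, a log2 fold change of -2.93 ± 0.20 (adjusted p = 5.4e-06, edgeR). Mup21 was therefore lower in MMI than in CT and lower again in MMI+T3.

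Of the 11 other numbered Mup genes in both tables, 10 were tested. All 10 were higher in MMI+T3 against MMI, where 9.83% of all genes tested were. Their log2 fold changes ran between 4.43 for Mup10 and 8.66 for Mup9. The remaining gene, Mup4, which is known from the nasal tissue of mice, stayed under 1 CPM in every library and was not tested, with 6, 13 and 13 counts in MMI+T3 and 6, 1 and 0 counts in MMI. Mup5, known from salivary glands, reached only 1.36, 1.26 and 0.924 CPM in MMI+T3 livers and had 1, 1 and 0 counts in MMI livers, so that it entered the test through MMI+T3 and its direction was largely set by the filter on low counts. Mup6 had 3, 1 and 1 counts in MMI livers, so that it too entered the test through MMI+T3. Its fold change over MMI is imprecise for that reason. Mup17 was the most abundant of the 11. It had 5183, 6327 and 3987 CPM in MMI+T3 livers and 35.1, 14.3 and 32.5 CPM in MMI livers, against 1121, 1785 and 2141 CPM in CT livers, and 59.6% of its stretches were unique. Mup14 had 2303, 2321 and 1642 CPM in MMI+T3 livers and 81, 25.7 and 46.4 CPM in MMI livers, against 1251, 1680 and 1580 CPM in CT livers.

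All 10 of the tested other genes were lower in MMI against CT, where 2.8% of all genes tested were. Their log2 fold changes ran between -5.93 for Mup17 and -3.41 for Mup10. Mup5 and Mup6, with hardly any counts in MMI livers, entered that test through CT, so their direction there was largely set by the filter. Of the 10, 9 were higher in MMI+T3 against CT, where 13.3% of all genes tested were, and Mup5 did not pass (0.38 ± 0.42). The largest excess over CT was that of Mup6, with a log2 fold change of 3.52 ± 0.33, followed by Mup9 with 2.89 ± 0.31, Mup18 with 2.18 ± 0.18, Mup16 with 1.96 ± 0.26 and Mup17 with 1.61 ± 0.23. Mup6, with 28.8, 20.8 and 12.6 CPM in MMI+T3 livers and 0.136, 0.0429 and 0.0525 CPM in MMI livers, against 1.26, 1.65 and 2.45 CPM in CT livers, shared no stretch with any other gene. Mup9 had 1113, 1377 and 692 CPM in MMI+T3 livers and 2.99, 1.29 and 3.52 CPM in MMI livers, against 85.7, 148 and 193 CPM in CT livers. Mup8, Mup10, Mup13 and Mup14 were also higher in MMI+T3 than in CT, with log2 fold changes of 1.54, 1.01, 1.05 and 0.46.

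Among the 7 members and 11 other genes, every MMI library lay below all 6 libraries of the other groups, which was so for 5.79% of all genes in both tables. Because reads may be split among copies, the 15 numbered genes that share stretches with each other, 7 of them members, were also summed. Their sum was 15367 ± 3826 CPM in MMI+T3 and 145 ± 65.7 CPM in MMI, against 8369 ± 1536 CPM in CT (SD, n = 3 each). The mean of MMI was 0.0173 of that of CT and the mean of MMI+T3 was 1.84 times that of CT. The sum does not depend on how reads were divided among these 15 genes. It still depends on whether reads matching several genes were counted at all. Mup22, which has no counts listed in either table, also shares stretches with them, and reads given to it would be missing.

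**Figure D3:**
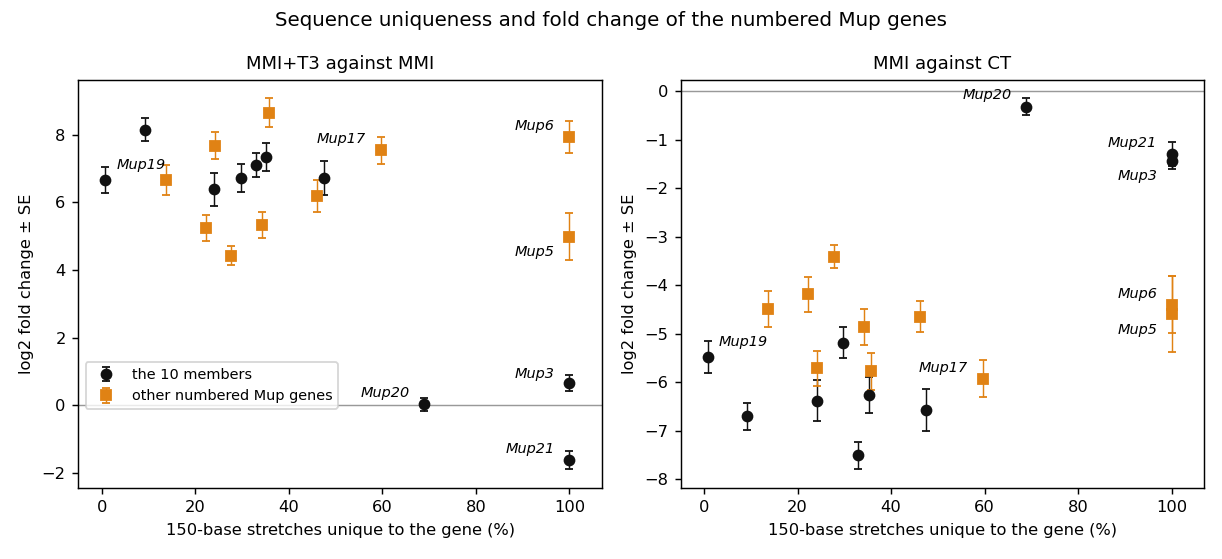
Share of 150-base transcript stretches found in no other gene (horizontal axis, %) and log2 fold change with its standard error from edgeR (vertical axis) for the numbered Mup genes tested. Mup3 and Mup21 at 100% and Mup20 at 68.9% lie nearest 0, while Mup6 and Mup5, also at 100% but with at most 3 counts in any MMI library, lie with the similar copies.

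Of the 21 Mup pseudogenes, most had few counts in MMI livers. Mup-ps4, Mup-ps7 and Mup-ps10 had 0 counts in all 3 MMI libraries, and such genes entered the test only through the group in which they were high, so no count of calls is given for them. Together the pseudogenes had 193 ± 34.1 CPM in MMI+T3 and 42.5 ± 9.95 CPM in MMI, against 142 ± 23.9 CPM in CT. Of these means, Mup-ps19 alone held 36.41 CPM in MMI+T3, 39.55 CPM in MMI and 55.05 CPM in CT. The sum in MMI was thus mostly Mup-ps19, and it hides the larger differences of the others. Mup-ps19, which shares stretches with Mup20, was well covered in every group and did not pass in either comparison with MMI. It was lower in MMI+T3 against CT, with a log2 fold change of -0.61 ± 0.13 (adjusted p = 0.00772, edgeR). It had 35.5, 32.3 and 41.4 CPM in MMI+T3 livers and 48.8, 31.9 and 38.1 CPM in MMI livers, against 63.8, 47.2 and 54.2 CPM in CT livers. Mup-ps20 had 317 counts in MMI+T3 replicate 2 and 31 and 12 in the other MMI+T3 libraries, so that its log2 fold change of 5.33 ± 1.22 against MMI rested mostly on 1 library.

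Of the 10 members, the 3 with the smaller fold changes lie together. The 41 Mup rows of chromosome 4 span 2191.1 kb between the starts of the first, Mup4, and the last, Mup21. Mup20, Mup3 and Mup21 are the last 3 in this order, starting 2093.4, 2126.7 and 2191.1 kb from the first. The other 7 members start between 109.7 kb (Mup7) and 1821.5 kb (Mup19) from the first. This is a description of position, with no test.

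**Figure D4:**
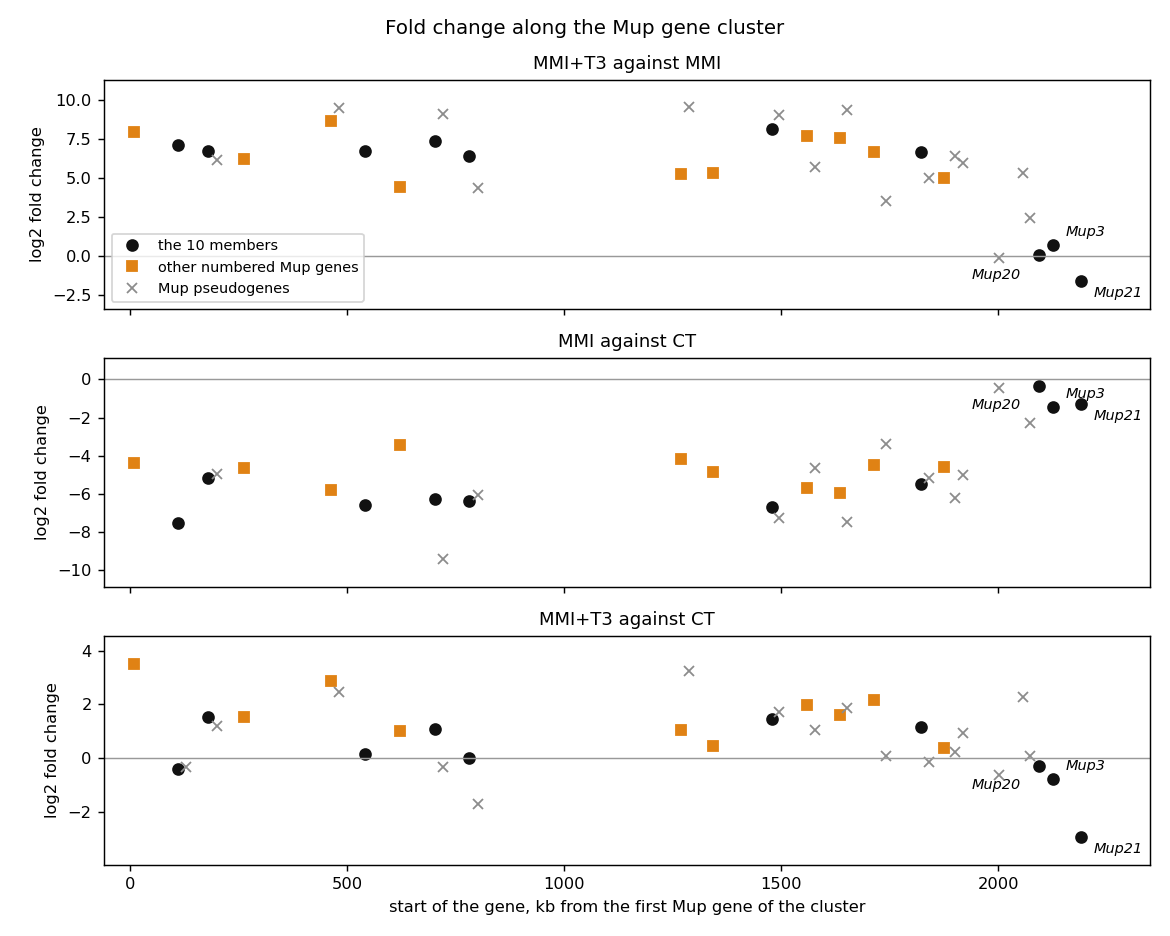
Log2 fold change from edgeR (vertical axes) against the start of each Mup gene in kb from the first Mup gene of the cluster, for MMI+T3 against MMI, MMI against CT and MMI+T3 against CT, with members as circles, other numbered genes as squares and pseudogenes as crosses. In the upper panel the 7 similar members lie between 6.39 and 8.16, and Mup20, Mup3 and Mup21 at the end of the cluster lie at 0.03, 0.66 and -1.63. Genes with too few counts for the test are not drawn, and many pseudogenes are drawn only because they passed the filter through the group in which they were high.

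The make-up of the Mup transcripts differed among the groups. Levels of different genes are compared here per kb of exon. Exon length does not correct for shared stretches, so shares between genes also depend on how reads matching several copies were counted. That is not known, and the unique share ran from 0.765% for Mup19 over 59.6% for Mup17 to 100% for Mup3 and Mup21. Mup3, Mup20 and Mup21 together made up 21.7%, 20.9% and 26.0% of the summed CPM per kb of the 21 numbered genes in MMI+T3 libraries and 95.8%, 97.5% and 96.2% in MMI libraries, against 49.98%, 44.5% and 45.8% in CT libraries. Mup20 alone made up 9.45 ± 3.28% in MMI+T3 and 46.4 ± 2.91% in MMI, against 14.2 ± 2.21% in CT (SD, n = 3 each). Mup17 had the largest share in MMI+T3, 29.6 ± 1.16%, against 0.811 ± 0.206% in MMI. Mup7 made up 12.0 ± 1.24% in MMI+T3 and 0.46 ± 0.0625% in MMI, against 20.7 ± 0.816% in CT. A share can change because other genes changed, and Mup20 is the clearest case, since its own CPM did not pass the test in any of the 3 comparisons.

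**Figure D5:**
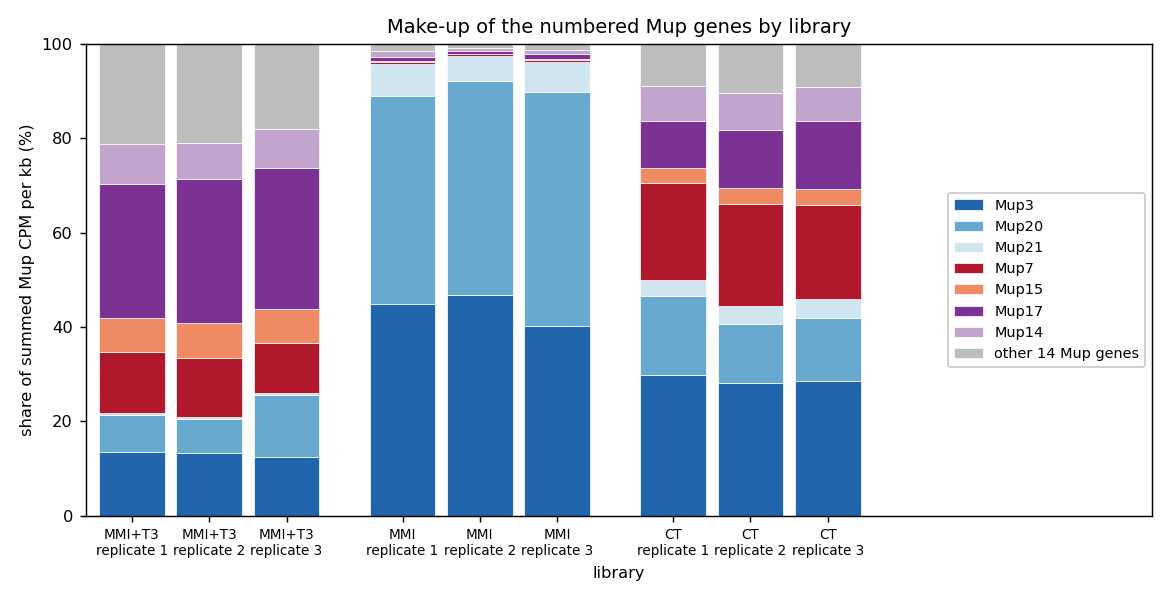
Share of each Mup gene in the summed CPM per kb of exon of the 21 numbered Mup genes (vertical axis, %) in each library, in the order MMI+T3, MMI and CT. Mup3, Mup20 and Mup21, in blue, fill at least 95.8% of each MMI bar, and Mup17 and Mup7, in purple and dark red, are nearly invisible there.

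Within the 10 members, the order of levels per kb in MMI+T3 was Mup3, Mup7, Mup20 and Mup15, with 2466, 2287, 1690 and 1384 CPM per kb, then Mup11, Mup19, Mup12, Mup2, Mup1 and Mup21. Neighbours in that order overlapped in their library values except Mup15 and Mup11. In MMI the order was Mup20 with 1630 CPM per kb and Mup3 with 1539, which overlapped, then Mup21 with 222 and Mup7 with 16.4, and the other 6 were below 5 CPM per kb and overlapped from one to the next. In CT it was Mup3 with 4197, Mup7 with 3023, Mup20 with 2053, Mup21 with 552 and Mup15 with 502 CPM per kb, then Mup12, Mup11, Mup19, Mup1 and Mup2. There the first 3 did not overlap with their neighbours, whereas Mup21 and Mup15 overlapped. Mup21 thus stood in the fourth place in CT and in the last place in MMI+T3. Like the shares above, these orders depend on how reads matching several copies were counted, which is not known.

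Over the 9 libraries, the Pearson correlation of log2(CPM + 1) among the 7 similar members was between 0.956 and 0.999. With Mup7 it was 0.832 for Mup3, 0.473 for Mup20 and 0.035 for Mup21. These values describe 9 libraries of 3 groups that share the group differences and, for the similar copies, possibly reads. Of 9563 genes outside the family with a mean of at least 5 CPM, those most like the summed CPM of the members were Ttc39c (r = 0.997), Selenbp2 (0.994), Serpina1e (0.980), Bbc3 (0.976) and Tpmt (0.976). Serpina1e and Selenbp2 are themselves known for male-biased expression in mouse liver. Selenbp2 had 958 ± 398 CPM in MMI+T3 and 75.5 ± 43.6 CPM in MMI, against 1251 ± 342 CPM in CT. For Mup20 alone the closest were Tmco6 (0.975), Foxp1 (0.923), Ctdsp2 (0.912), Nipbl (0.901) and Elovl5 (0.868).

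Growth hormone acts on Mup genes through its receptor and the transcription factor STAT5b. Of 17 genes of that pathway tested, 4 were higher and 1 was lower in MMI+T3 against MMI, beside the 7 Mup genes that rose. The counts of this list and of those that follow stand beside the shares of all genes tested, which were 9.83% higher and 7.18% lower in MMI+T3 against MMI, 2.48% higher and 2.8% lower in MMI against CT, and 13.3% higher and 12.3% lower in MMI+T3 against CT. With 1 of 17 lower, the growth hormone list was near that share. Stat5b had 154 ± 13.9 CPM in MMI+T3 and 60.2 ± 2.39 CPM in MMI, against 98.8 ± 3.59 CPM in CT. It was the pathway's only called gene in MMI against CT, lower in MMI with a log2 fold change of -0.70 ± 0.11. Stat5a was 2.08 ± 0.20 higher and Igfbp3, a carrier of insulin-like growth factors, was lower with -0.63 ± 0.13 in MMI+T3 against MMI. Against CT, MMI+T3 livers were higher in Stat5a (1.31 ± 0.10) and Stat5b (0.63 ± 0.10) and lower in Ghr, the growth hormone receptor (-0.99 ± 0.11).

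Of the known regulators of sex-biased and Mup expression, 5 of 22 tested were higher and 3 lower in MMI+T3 against MMI. Cux2, a repressor of male-biased genes that is normally found in female liver, had 78.2 ± 12.3 CPM in MMI+T3 and 0.627 ± 0.196 CPM in MMI, against 0.177 ± 0.138 CPM in CT. Cux2 had a log2 fold change of 6.94 ± 0.24 against MMI and 8.67 ± 0.27 against CT. Both Cux2 and the 7 Mup genes were high in MMI+T3. In CT the 7 Mup genes were high and Cux2 was near its level in MMI or below it. Any link between Cux2 and the Mup genes was not tested. The coregulator gene Trim24 (2.06 ± 0.14) and the estrogen receptor gene Esr1 (2.92 ± 0.25) were also higher in MMI+T3 than in MMI. Against CT, Esr1 was 2.28 ± 0.18 and Cebpb, a liver-enriched transcription factor, 2.15 ± 0.17 higher in MMI+T3. In MMI livers against CT, Foxa3 was lower with -0.58 ± 0.14, and it was the only one of 21 tested that was lower.

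Mup genes are among the male-biased genes of mouse liver, and the other male-biased genes listed moved partly with them. In MMI against CT 16 of 27 tested were lower in MMI and none was higher, with a median log2 fold change of -1.34 beside -5.87 for the Mup members. Those with the smallest adjusted p were Elovl3 (-2.49 ± 0.23), Hsd3b5 (-6.46 ± 0.68) and Susd4 (-1.80 ± 0.19). In MMI+T3 against MMI, however, 7 of 26 were higher and 8 were lower, unlike the Mup members. Cyp7b1 was higher (2.68 ± 0.30), whereas Cyp4a12b (-3.18 ± 0.29) and Mcm10 (-2.29 ± 0.24) were lower in MMI+T3. Of 27 tested in MMI+T3 against CT, 15 were lower and 1 was higher, among them Elovl3 (-1.80 ± 0.18), Cyp4a12b (-3.62 ± 0.30) and Cyp2u1 (-2.05 ± 0.19). Most called male-biased genes thus stood below the untreated level in MMI+T3. Of the 10 Mup members, 4 stood above that level, 2 stood below it and 4 did not pass.

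Female-biased liver genes gave the reverse of the Mup members in MMI against CT, where 11 of 19 tested were higher in MMI and none was lower. Among them were Cyp2a4 (6.36 ± 0.29), Cyp2b9 (8.39 ± 0.56) and Vldlr (2.66 ± 0.31). Of 21 tested in MMI+T3 against MMI, 5 were higher and 6 were lower. Cyp17a1 (6.03 ± 0.30) and A1bg (7.89 ± 0.74) were higher and Vldlr (-3.71 ± 0.33) was lower. Of 19 tested in MMI+T3 against CT, 9 were higher and 3 lower, with Cyp2a4 (5.92 ± 0.22), Cyp17a1 (5.86 ± 0.27) and Cyp2c38 (1.39 ± 0.11) among the higher ones.

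Other lipocalins of the liver did not share the pattern of the 7 Mup genes throughout. Of 9 tested in MMI+T3 against MMI, 7 were higher, with Orm1 (2.04 ± 0.18) and Orm2 (3.83 ± 0.43), which encode acute-phase orosomucoids, and Ptgds (4.02 ± 0.29). Of 10 tested in MMI against CT, 1 was higher and 2 were lower. Orm3 was higher (1.04 ± 0.18), whereas Ptgds (-1.20 ± 0.30) and the odorant-binding protein gene Obp2a (-5.77 ± 0.74) were lower in MMI, as the Mup genes were. Of 10 tested in MMI+T3 against CT, 7 were higher and 1 was lower, with Orm1 (1.56 ± 0.16), Orm2 (4.09 ± 0.43) and Ptgds (2.80 ± 0.22) higher.

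The genes listed for their response to thyroid hormone show the size of the hormone difference beside the Mup genes. Dio1, a deiodinase gene induced by T3, had 891 ± 48.7 CPM in MMI+T3 and 3.90 ± 0.769 CPM in MMI, against 61.3 ± 18.3 CPM in CT. Its log2 fold change of 7.82 ± 0.21 in MMI+T3 against MMI was within the range of the 7 Mup members. Thrsp was 4.68 ± 0.22 higher and Serpina7, the thyroxine-binding globulin, was lower with -8.35 ± 0.21. In MMI against CT, Dio1 (-3.96 ± 0.24) and Thrsp (-1.71 ± 0.20) were lower and Serpina7 (2.60 ± 0.14) was higher. In all, 10 of 17 were higher and 1 lower in MMI+T3 against MMI, 1 higher and 5 lower in MMI against CT, and 10 higher and 4 lower in MMI+T3 against CT, where Idh3a (1.72 ± 0.09) and Bcl3 (1.94 ± 0.09) were higher and Serpina7 (-5.76 ± 0.22) lower.

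The liver libraries held the defining markers of hepatocytes, the cells that make Mup RNA. Summed over the 10 markers found in both tables of 11 listed, they reached 30795 to 33816 CPM in MMI+T3 and 37090 to 42402 CPM in MMI, against 47767 to 50736 CPM in CT, and none was at 0. Of the 10, 3 were lower in MMI+T3 against MMI, Alb, Ttr and Apoa2, with log2 fold changes between -0.75 and -0.71, and in MMI against CT none passed. In MMI+T3 against CT 4 of the 10 were lower, namely Alb (-1.01), Ttr (-0.68), Apoa2 (-0.66) and Apoa1 (-0.43). Macrophage markers were higher in MMI+T3, all 12 of 12 against either group. Their sum was 348.5 to 679.4 CPM in MMI+T3 and 120.9 to 158.5 CPM in MMI, against 147.8 to 188 CPM in CT, with no marker at 0. In MMI against CT none of the 12 macrophage markers passed, with 4 log2 fold changes above 0 and 8 below. Endothelial markers were higher in 2 of 12 in MMI against CT and in 6 of 12 in MMI+T3 against CT. Of 12 stellate cell markers 1 passed, Col3a1, higher in MMI+T3 against CT. Of 5 erythroid markers tested 1 was lower in MMI+T3 against MMI, 2 in MMI against CT and 1 in MMI+T3 against CT. Mitochondrial genes took 4.99% of the counts in MMI replicate 3 and 3.29% to 3.76% in the other libraries, and no call of a member changed without that library. The part of these differences in the Mup values was not tested.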

How the data were processed

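Total liver RNA was made into Illumina TruSeq libraries and sequenced as paired reads of 150 bases. Unnormalised counts of reads per gene were deposited by the authors, with the CT libraries in a separate table. Per the submitters' processing notes the build was GRCm38 and the tools included HTSeq 0.6.1p1 and HISAT2 2.1.0, while the study's methods name Trimmomatic, STAR, HTSeq and DESeq2. Which aligner made the counts, and how reads matching several genes and their strand were handled, is not given in the sources used here. The table of the treated groups lists only genes with a summed count of at least 10. Symbols of 21 genes read as dates and were taken from the annotation by gene ID.

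Counts were tested with edgeR 4.0.16 (R 4.3.3), with scaling by the trimmed mean of M-values, filterByExpr, the quasi-likelihood test and Benjamini-Hochberg adjustment, on the 6 libraries of each comparison. Comparisons with CT used the genes of both tables. The SE is the absolute log2 fold change divided by the square root of the F statistic. DESeq2 1.42.0 and limma 3.58.1 served as alternatives, with other scalings, other filters, a fit of all 9 libraries, omission of each library and a replicate block. The scripts were checked on simulated counts. Gene coordinates and exon lengths come from GENCODE M21. The labels do not tie each library to its own mouse, and p-values therefore reflect only how the libraries of a group varied, which could be technical variation. Depth was 17256776 to 22599227 counts a library.

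The members and gene lists were chosen with earlier results of these data known. The text names the 10 members, the 3 genes of each list with the smallest adjusted p under 0.05 in each comparison, and the 5 genes outside the family with the largest Pearson correlation with the members' summed CPM or with Mup20. One gene that this rule names is not reported here.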

Additional observations from a re-analysis of the deposited data

How the results depend on the processing

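The number of members higher and lower was within 1.5 times that given above under every alternative run. Among the log2 fold changes of single members under the alternatives, 13 changed sign and 6 came to pass, and none ceased to pass. The sign changed for Mup12 in MMI+T3 against CT with DESeq2 size factors (-0.0073), no filter (-0.0043), the DESeq2 Wald test (-0.0125), limma-voom (-0.0474) and the replicate block (-0.0452). It also changed when 1 library was left out for Mup12 (lowest -0.2296, highest 0.2291) and Mup1 (-0.1098 to 0.3956) in MMI+T3 against CT, and for Mup20 in MMI+T3 against MMI (-0.1456 to 0.1601). None of these passed. Mup3 in MMI+T3 against MMI also passed with the DESeq2 Wald test (0.67, adjusted p = 0.0108) and with all 9 libraries in 1 fit (0.67, adjusted p = 0.0320), and Mup20 in MMI+T3 against CT with the DESeq2 Wald test (-0.30, adjusted p = 0.0328); the cause was not tested. Over all genes, 736 were called in MMI against CT, 1152 with the DESeq2 Wald test, and between 341 and 783 when 1 library was left out, fewest without CT replicate 2 (341) and CT replicate 3 (382). Leaving Mup rows out of the library sizes changed no member's call. Ranked by Spearman's rho, 2 of the 5 genes most like the summed members and 2 of the 5 most like Mup20 were still among the first 5. With the replicate number as a block (replicate block), 7 members were higher and 1 lower in MMI+T3 against MMI, 9 lower in MMI against CT, and 4 higher and 2 lower in MMI+T3 against CT, and no member's call changed. Same-numbered libraries did not deviate together in every pair (r between -0.0723 and 0.172), so the numbers are not taken as pairs. Mup1 had 5 to 44 counts in MMI livers, which limits the precision of its fold changes against MMI and of MMI against CT.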
